A study of Mus musculus with 24 samples.

Results

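The genes described here are 10 genes of the osteoblast and of mineral deposition: Sp7, Alpl, Ibsp, Spp1, Ifitm5, Dmp1, Mepe, Phex, Phospho1 and Bglap. They were chosen by name from 56748 genes in the deposited table and found there by gene identifier. The dental mesenchyme, the connective tissue that lies under and around the epithelium of a tooth germ, was isolated from first mandibular molar germs of ICR mice and sequenced in bulk. The question asked of these genes is whether a higher level on the lingual (tongue) side of the cap stage mesenchyme is also found at the bell stage and after culture. Each of 8 groups holds 3 libraries. Cap-W and Bell-W are undivided mesenchyme at embryonic day 13, called the cap stage, and at day 15, called the bell stage. Cap-L, Cap-B, Bell-L and Bell-B are the lingual and the buccal (cheek) parts at those stages, cut with a 30 gauge needle. Cap-L+2D and Cap-B+2D are the same 2 parts of the cap stage germ, kept in vitro for 2 days, each without its counterpart, before dispase II was used to take the mesenchyme. The methods give 36 embryos from 3 pregnant mice, triplicate sequencing and 2 biological replicates, so the libraries may share animals, and the p-values measure only the spread between these libraries, which may be technical.

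Bone is laid down by osteoblasts, which first secrete a collagen matrix and then fill it with calcium phosphate. Sp7 (osterix) is a zinc finger transcription factor that acts downstream of Runx2 and is needed for osteoblasts to form. Alkaline phosphatase (Alpl) and Phospho1 release the phosphate from which crystals grow, Phex is a membrane endopeptidase that keeps blood phosphate up, and Ifitm5 is a small membrane protein of osteoblasts. Ibsp (bone sialoprotein), Spp1 (osteopontin), Dmp1 and Mepe are acidic phosphoproteins of the mineralizing matrix, and Bglap is osteocalcin, a late product of the osteoblast. The mesenchyme around a tooth germ gives rise to the dental papilla, which will make dentin, and to the dental follicle, whose cells make the bone of the socket, so several of these genes serve both tooth and bone.

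Dmp1, Ibsp, Mepe and Spp1 lie close together on chromosome 5, between 104350479 and 104588916 in GRCm39, a stretch of 238.4 kb. Dspp, the dentin gene of the same family, had between 0 and 4 counts in each of the 24 libraries. Bglap (chromosome 3, 88290808 to 88291771) has near-identical copies beside it, Bglap2 and Bglap3. Read pairs that map to several places were left out of the counts, so the levels of these 3 genes are uncertain. The other members are Sp7 (chromosome 15, 102265041 to 102275617), Alpl (chromosome 4, 137469044 to 137523695), Ifitm5 (chromosome 7, 140528871 to 140530204), Phex (chromosome X, 155945071 to 156198308) and Phospho1 (chromosome 11, 95715325 to 95722966). Read pairs that overlap more than 1 gene were also left out, and counting ignored strand. This touches 89.6% of the exon bases of Phospho1, which overlap Zfp652 and Abi3, 29.7% of those of Ifitm5, which overlap Gm45717, and 18.8% of those of Spp1, which overlap Gm42793. No such overlap was found for the other 7.

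The upstream sequences of the 4 genes that rose most in the cultured lingual part are given because these genes moved together there. RefSeq windows of 250 bases before a transcript start (GRCm38.p6, gene strand, 5′ to 3′) were found for 9 of the 10 members, and the windows searched numbered 12. Capitals mark ACCACA, the core letters bound by Runx factors. These windows are chr3:88384467-88384716 (minus strand) for Bglap, and chr5:104434861-104435110, chr5:104202367-104202616 and chr5:104299037-104299286 (plus strand) for Spp1, Dmp1 and Ibsp.
Bglap: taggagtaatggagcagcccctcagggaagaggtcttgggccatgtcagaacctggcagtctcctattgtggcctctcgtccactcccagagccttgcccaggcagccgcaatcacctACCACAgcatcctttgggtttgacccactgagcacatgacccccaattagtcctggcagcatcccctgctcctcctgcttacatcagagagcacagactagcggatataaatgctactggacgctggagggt
Spp1: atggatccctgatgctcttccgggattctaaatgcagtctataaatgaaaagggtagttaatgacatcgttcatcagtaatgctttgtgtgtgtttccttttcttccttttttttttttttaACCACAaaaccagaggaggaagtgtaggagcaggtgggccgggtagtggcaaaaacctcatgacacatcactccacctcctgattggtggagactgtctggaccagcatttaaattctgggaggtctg
Dmp1: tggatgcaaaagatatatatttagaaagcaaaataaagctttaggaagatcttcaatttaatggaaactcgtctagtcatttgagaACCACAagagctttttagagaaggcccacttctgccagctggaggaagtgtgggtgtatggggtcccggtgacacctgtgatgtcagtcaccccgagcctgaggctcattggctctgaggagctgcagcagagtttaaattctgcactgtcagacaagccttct
Ibsp: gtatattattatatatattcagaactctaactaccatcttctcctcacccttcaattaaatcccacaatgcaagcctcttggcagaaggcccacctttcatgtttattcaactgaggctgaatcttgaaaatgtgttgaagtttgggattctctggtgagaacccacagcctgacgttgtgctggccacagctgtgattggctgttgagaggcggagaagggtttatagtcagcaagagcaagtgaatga
The letters ACCACA, or TGTGGT on the other strand, stood in 4 of the 12 windows, those of Bglap, Spp1, Dmp1 and Mepe, and in 14.0% of all 32851 windows of this length. Spp1 and Dmp1 each have a further window, which holds none, and the window of Ibsp holds none. TATAAA, or TTTATA on the other strand, stood in 5 of the 12 windows and in 12.4% of all windows. The GC box letters GGGCGG or CCGCCC stood in 3 of the 12, of Alpl, Ifitm5 and Phospho1, against 32.7% of all windows, and the homeodomain letters TAATTA in 2 of the 12, of Mepe and Spp1, against 4.84%. A match of letters is a description of the sequence and not a measured binding site.

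The libraries held from 20581720 to 39266497 counted read pairs. A level is given as normalized CPM, counts per 1000000 after TMM normalization over all 24 libraries, and 3 counts in a library came to between 0.0764 and 0.146 CPM. A gene counted as called at a Benjamini-Hochberg adjusted p under 0.05 in edgeR's quasi-likelihood test, provided that its log2 fold change was beyond 0.5 in either direction. SE stands for the standard error of a log2 fold change. The interactions, which are differences between log2 fold changes, were called on the adjusted p alone. An exact permutation test of 3 libraries against 3 cannot go below p = 0.10, so none is given. Markers of dental mesenchyme (Msx1, Pax9, Lhx6, Lhx8, Barx1, Dlx1 and Dlx2) summed to between 1086 and 2170 CPM in every library. Their mean sums were lower in the lingual part: 1516 CPM in Cap-L and 1911 in Cap-B, 1366 in Bell-L and 1664 in Bell-B. In culture they were 1099 in Cap-L+2D and 1286 in Cap-B+2D. The part of this difference in the results was not tested. In the first Cap-W library the ribosomal gene Rn18s-rs5 took 5.39% of counts, against at most 1.43% in the other 23 libraries.

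**Figure D1:**
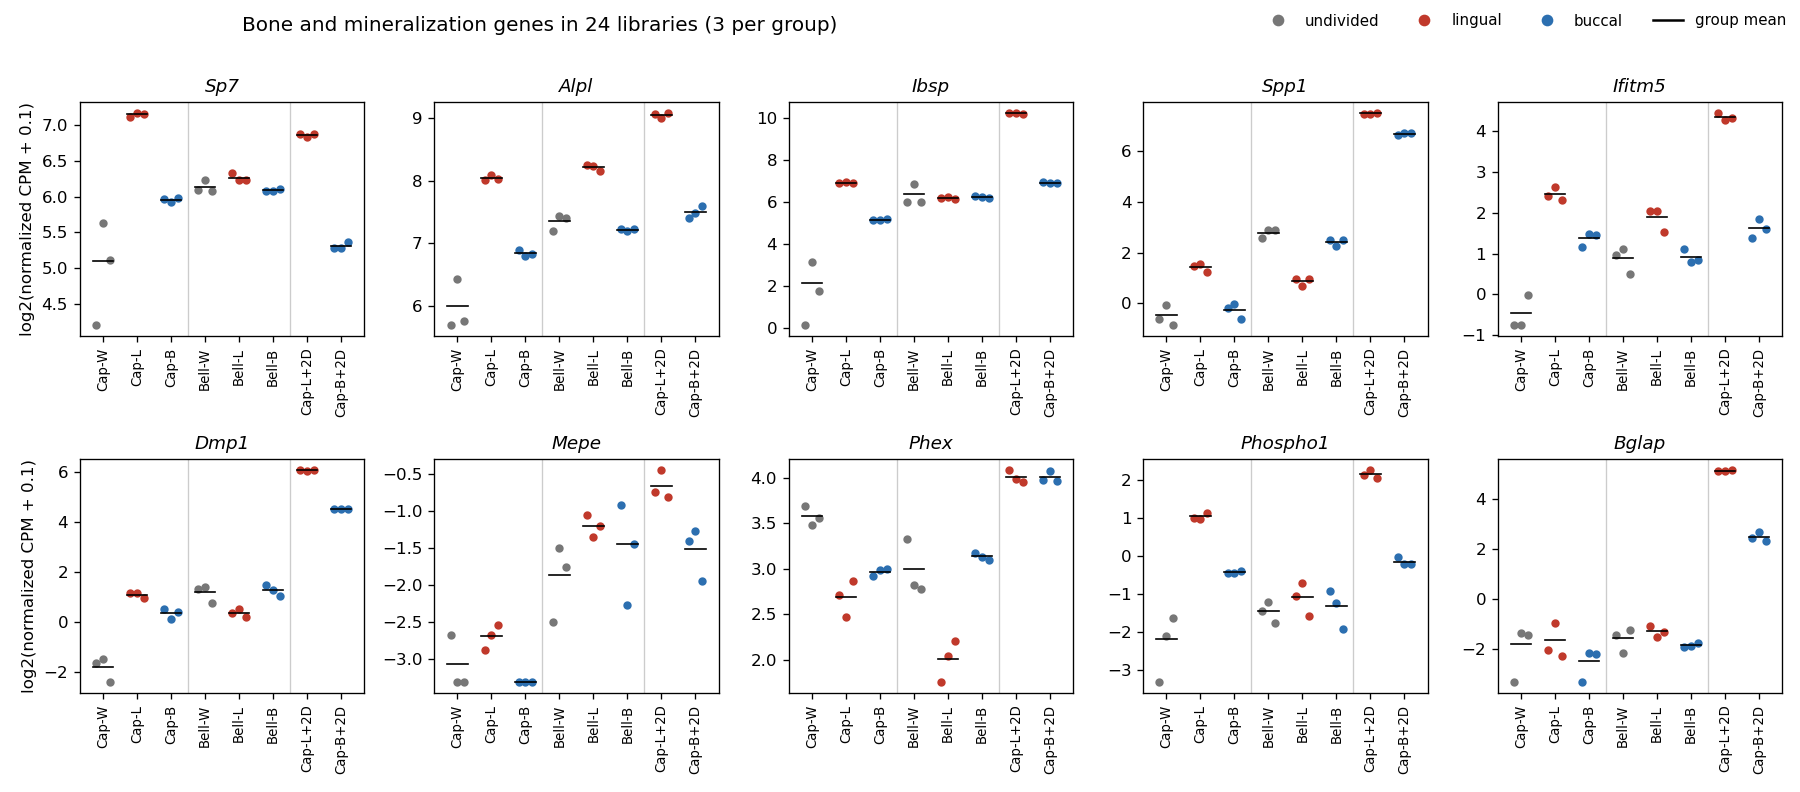
Level of each of the 10 genes in each of the 24 libraries, as log2(normalized CPM + 0.1), with the groups on the horizontal axis. Points are libraries, bars are means of 3 libraries, and colors mark undivided, lingual and buccal mesenchyme. The highest mean of Alpl, Ibsp, Spp1, Ifitm5, Dmp1, Mepe, Phospho1 and Bglap is in Cap-L+2D, whereas Sp7 is highest in Cap-L.

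At the cap stage, the lingual part held more RNA of most of these genes. Of the 10 members, 8 passed the filter on low counts and 7 were called higher in Cap-L: Sp7, Alpl, Ibsp, Spp1, Ifitm5, Dmp1 and Phospho1. None was called higher in Cap-B, where Phex passed the adjusted p but not the fold limit in edgeR. Of all 20653 genes tested, 7.10% were called higher in Cap-L, and 10.4% higher in Cap-B. The median log2 fold change of the 8 members was 1.17, against 0.01 for all genes tested. In bulk RNA, fewer cells of a type and less RNA per cell cannot be told apart.

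At the bell stage the side difference was split. Alpl and Ifitm5 were called higher in Bell-L (6.88% of 21181 genes were), and Spp1, Dmp1 and Phex were called higher in Bell-B (6.00%). Sp7, Ibsp and Phospho1 were not called, and the median log2 fold change of the 8 members tested was 0.07. After culture the lingual excess was found again: 9 of the 10 members were called on the lingual side (12.5% of 21195 genes) and none on the buccal side (12.5%), and the tenth, Phex, was not called. The median log2 fold change of the members was then 1.56.

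**Figure D2:**
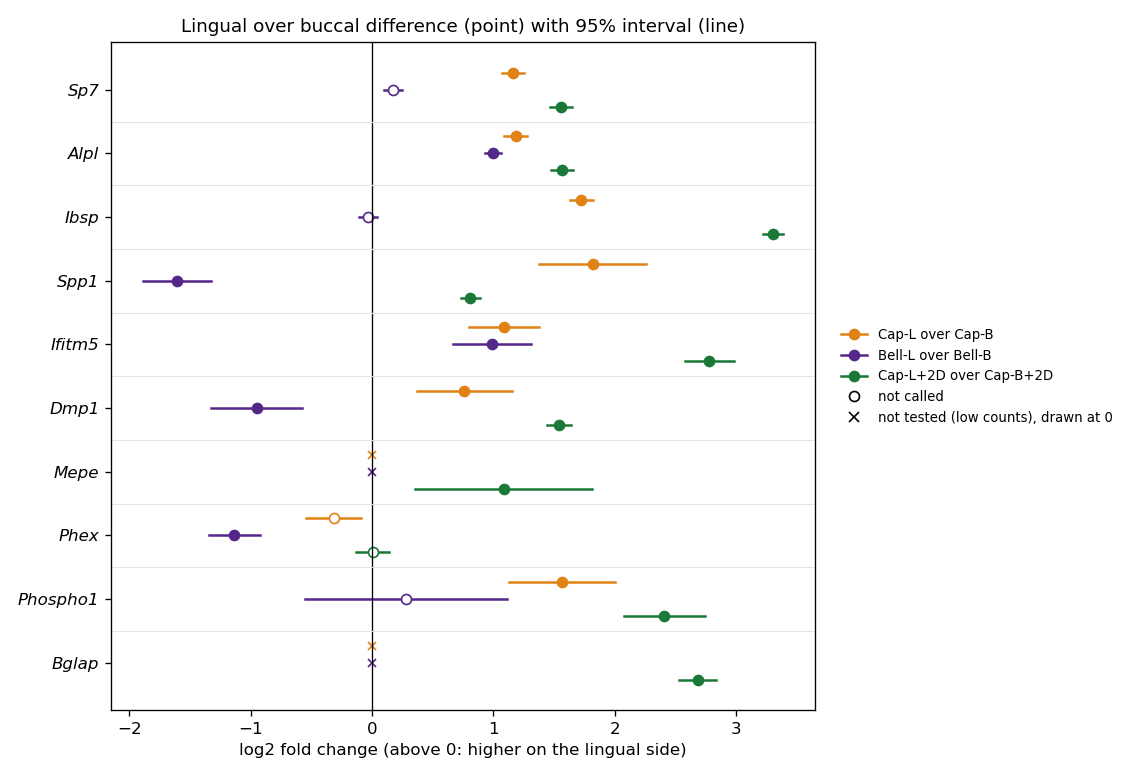
Log2 fold change of lingual over buccal mesenchyme at the cap stage, at the bell stage and after culture, for each gene, with its 95% interval from the edgeR fit. Filled points were called, open points were not, and crosses drawn at 0 mark genes with too few counts to be tested. The cap and culture values lie to the right of 0 for all tested genes but Phex, and the bell values lie on both sides of 0.

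The change in the side difference was tested itself. From cap to bell, a lower lingual over buccal log2 fold change was called in 7 of 8 members (14.5% of 21931 genes had an interaction called below 0). The called decreases ran from 0.18 for Alpl to 3.42 for Spp1. Ifitm5 was the exception, at -0.09 (SE 0.23, adjusted p = 0.794 by edgeR), with a 95% interval of -0.55 to 0.37. With all 24 libraries in 1 fit the stage calls of Alpl and Phospho1 were lost (edgeR adjusted p = 0.514 and 0.0980). From cap to culture, a higher lingual over buccal log2 fold change was called in 7 of 10 members (19.5% of 22098 genes had an interaction called above 0). Spp1 alone was called lower (16.0% had an interaction called below 0). With all 24 libraries in 1 fit 3 members were called higher (Ibsp, Ifitm5 and Dmp1), and the calls of Sp7, Alpl, Phospho1 and Phex were lost (edgeR adjusted p = 0.366, 0.171, 0.203 and 0.331). The interactions of Mepe and Bglap with culture were not called (edgeR adjusted p = 0.18 and 0.264). Their values were -2.67 (95% interval -5.76 to 0.42) and 1.25 (95% interval -0.46 to 2.95).

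Sp7, the transcription factor, was at 138, 144 and 142 CPM in the 3 Cap-L libraries and at 62.6, 60.6 and 62.9 in the 3 Cap-B libraries. The groups did not overlap, and Sp7 was 2.24-fold higher on the lingual side (log2 fold change of 1.16 with a standard error of 0.044, adjusted p = 1.66e-13 by edgeR). In the bell stage parts the values were 80.3, 75.1 and 74.8 in Bell-L and 67.3, 67.4 and 69.0 in Bell-B. The lingual libraries still lay above the buccal ones, but by 1.13-fold, under the limit for a call (log2 fold change of 0.17 with a standard error of 0.037, adjusted p = 0.000179 by edgeR). The side difference was thus smaller at the bell stage, with an interaction of -0.98 (SE 0.057, adjusted p = 1.71e-14 by edgeR). In culture Sp7 was at 116, 114 and 117 CPM in Cap-L+2D and at 38.8, 38.7 and 41.0 in Cap-B+2D, a 2.94-fold difference (log2 fold change of 1.56 with a standard error of 0.042, adjusted p = 1.67e-20 by edgeR). The 8 groups ranked Cap-L, Cap-L+2D, Bell-L, Bell-W, Bell-B, Cap-B, Cap-B+2D and Cap-W by their means. Libraries overlapped between Bell-L and Bell-W, between Bell-W and Bell-B, and between Cap-B+2D and Cap-W, and the other neighbours in this order did not overlap.

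Alpl, the phosphatase that frees phosphate from pyrophosphate at the cell surface, kept its lingual excess in all 3 settings. Its level was 259, 274 and 260.3 CPM in Cap-L against 119, 111 and 114 in Cap-B, and 305, 303 and 286 in Bell-L against 149.6, 147 and 149.8 in Bell-B. The log2 fold changes were 1.18 (SE 0.045, adjusted p = 1.95e-13 by edgeR) and 1.00 (SE 0.032, adjusted p = 5.12e-27 by edgeR). No lingual library overlapped a buccal library at either stage. In culture, Alpl was at 539, 515 and 545 CPM in Cap-L+2D and 170.2, 179 and 193 in Cap-B+2D (log2 fold change of 1.57 with a standard error of 0.043, adjusted p = 1.68e-20 by edgeR). The interaction with stage was small, at -0.18 (SE 0.056, adjusted p = 0.0133 by edgeR), and was not called without the third Bell-L library or with all 24 libraries in 1 fit (edgeR adjusted p = 0.0670 and 0.514). Mean levels ranked Cap-L+2D, Bell-L, Cap-L, Cap-B+2D, Bell-W, Bell-B, Cap-B and Cap-W, and only Cap-B+2D with Bell-W and Bell-W with Bell-B had overlapping libraries.

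Phospho1, which releases phosphate inside matrix vesicles, was rare, and most of its exon bases cannot be counted here. It had 53, 67 and 59 counts in Cap-L and 14, 15 and 17 in Cap-B, or 1.95 ± 0.118 and 0.640 ± 0.0185 CPM (SD, n = 3 each). The groups did not overlap (log2 fold change of 1.57 with a standard error of 0.21, adjusted p = 6.64e-06 by edgeR). The bell stage parts had 10, 14 and 7 counts in Bell-L and 13, 9 and 5 in Bell-B, which overlapped (log2 fold change of 0.28 with a standard error of 0.41, adjusted p = 0.645 by edgeR), and the 95% interval of -0.55 to 1.11 leaves room for a difference on either side. The interaction with stage was -1.28 (SE 0.46, adjusted p = 0.0335 by edgeR), but it was lost with DESeq2, with all 24 libraries in 1 fit and in 6 of the 12 fits that left out 1 library. In culture the lingual part was at 4.23, 4.67 and 3.98 CPM and the buccal part at 0.878, 0.766 and 0.759 (log2 fold change of 2.41 with a standard error of 0.16, adjusted p = 2.39e-12 by edgeR).

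Ifitm5 kept a lingual excess of about the same size at cap and bell and had a larger one in culture. Its level was 5.19, 6.07 and 4.84 CPM in Cap-L and 2.12, 2.68 and 2.65 in Cap-B (log2 fold change of 1.09 with a standard error of 0.14, adjusted p = 3.26e-06 by edgeR). It was 4.03, 4.01 and 2.79 in Bell-L and 2.07, 1.64 and 1.69 in Bell-B (log2 fold change of 0.99 with a standard error of 0.16, adjusted p = 2.10e-06 by edgeR). In culture it was 21.6, 19.0 and 19.9 in Cap-L+2D and 2.50, 3.48 and 2.94 in Cap-B+2D (log2 fold change of 2.78 with a standard error of 0.097, adjusted p = 3.28e-18 by edgeR). The lingual libraries were above the buccal ones in each setting, and the interaction with culture was 1.69 (SE 0.19, adjusted p = 1.27e-08 by edgeR).

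Phex had no called lingual excess in any of the 3 settings. It was at 6.44, 5.43 and 7.20 CPM in Cap-L and 7.45, 7.82 and 7.86 in Cap-B, and the lower lingual level was under the fold limit for a call (log2 fold change of -0.32 with a standard error of 0.11, adjusted p = 0.0253 by edgeR). Every Bell-L library, at 3.27, 4.01 and 4.52 CPM, lay below every Bell-B library, at 8.92, 8.68 and 8.47 (log2 fold change of -1.14 with a standard error of 0.10, adjusted p = 3.49e-12 by edgeR). In culture the sides overlapped, at 16.9, 15.8 and 15.3 CPM in Cap-L+2D and 15.7, 16.8 and 15.4 in Cap-B+2D (log2 fold change of 0.01 with a standard error of 0.066, adjusted p = 0.948 by edgeR), with a 95% interval of -0.13 to 0.14. The interaction with culture was 0.33 (SE 0.12, adjusted p = 0.0378 by edgeR) and was lost with library sizes alone as the scale, with DESeq2, with no filter on low counts, with all 24 libraries in 1 fit and in 6 of the 12 fits that left out 1 library.

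Ibsp, a matrix protein that binds hydroxyapatite and cell surface integrins, had the largest side difference of the 10 genes in culture. At the cap stage it was at 119.9, 122 and 117 CPM in Cap-L and 35.2, 35.0 and 36.3 in Cap-B, so that no libraries overlapped and the lingual part was 3.31-fold higher (log2 fold change of 1.73 with a standard error of 0.046, adjusted p = 1.31e-15 by edgeR). Later, at the bell stage, it was at 71.6, 75.9 and 70.8 CPM in Bell-L and 76.4, 73.8 and 72.5 in Bell-B. These overlapped, and the 95% interval of the log2 fold change was -0.10 to 0.05 (edgeR adjusted p = 0.578), so any lingual excess there was smaller than at the cap stage. The interaction with stage was -1.75 (SE 0.059, adjusted p = 4.75e-20 by edgeR). In culture Ibsp was at 1179, 1197 and 1144 CPM in Cap-L+2D and 123, 118 and 117 in Cap-B+2D, a 9.86-fold difference (log2 fold change of 3.30 with a standard error of 0.039, adjusted p = 2.08e-27 by edgeR), and the interaction with culture was 1.58 (SE 0.061, adjusted p = 5.63e-19 by edgeR). By means the groups ranked Cap-L+2D, Cap-B+2D, Cap-L, Bell-W, Bell-B, Bell-L, Cap-B and Cap-W. Libraries overlapped between Cap-B+2D and Cap-L and among Bell-W, Bell-B and Bell-L.

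Spp1 and Dmp1 changed sides between cap and bell. Spp1, a phosphoprotein of bone matrix that macrophages also make, was at 2.68, 2.87 and 2.26 CPM in Cap-L and 0.767, 0.879 and 0.545 in Cap-B (log2 fold change of 1.82 with a standard error of 0.21, adjusted p = 1.11e-06 by edgeR). At the bell stage it was at 1.86, 1.49 and 1.83 CPM in Bell-L and 5.58, 4.70 and 5.49 in Bell-B (log2 fold change of -1.60 with a standard error of 0.14, adjusted p = 6.58e-13 by edgeR). The lingual libraries were all above the buccal ones at the cap stage and all below them at the bell stage, and the interaction was -3.42 (SE 0.25, adjusted p = 2.46e-12 by edgeR). In culture it was at 179, 179 and 184 CPM in Cap-L+2D and 101, 105 and 105 in Cap-B+2D. The lingual excess there was 1.75-fold (log2 fold change of 0.81 with a standard error of 0.038, adjusted p = 1.46e-15 by edgeR), smaller than at the cap stage, with an interaction of -1.01 (SE 0.19, adjusted p = 9.71e-05 by edgeR).

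Dmp1, an acidic protein that seeds mineral and is typical of osteocytes and odontoblasts, was near 1 to 3 CPM in the dissected parts. It was at 2.11, 2.14 and 1.87 CPM in Cap-L and 1.35, 1.00 and 1.21 in Cap-B (log2 fold change of 0.76 with a standard error of 0.18, adjusted p = 0.00276 by edgeR), and at 1.18, 1.35 and 1.06 in Bell-L and 2.66, 2.31 and 1.95 in Bell-B (log2 fold change of -0.95 with a standard error of 0.19, adjusted p = 5.89e-05 by edgeR). The libraries of the sides did not overlap at either stage, and the order of the sides was opposite. The interaction with stage was -1.71 (SE 0.26, adjusted p = 5.39e-06 by edgeR). In culture Dmp1 was at 66.8, 64.5 and 66.4 CPM in Cap-L+2D and 22.9, 22.9 and 22.4 in Cap-B+2D (log2 fold change of 1.54 with a standard error of 0.047, adjusted p = 1.76e-19 by edgeR), and the interaction with culture was 0.78 (SE 0.18, adjusted p = 0.000794 by edgeR).

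Mepe, a matrix phosphoprotein linked to phosphate balance, was at the limit of detection. It had 1, 2 and 2 counts in Cap-L and none in Cap-B, 10, 8 and 10 in Bell-L and 13, 3 and 8 in Bell-B, and the side was not tested at either stage. Counts of 0 in Cap-B allow a level of up to 3 counts per library. In culture it had 12, 18 and 17 counts in Cap-L+2D and 10, 9 and 5 in Cap-B+2D (log2 fold change of 1.09 with a standard error of 0.35, adjusted p = 0.0116 by edgeR). All 3 lingual libraries were above the buccal ones in CPM, but the call was lost with DESeq2, with all 24 libraries in 1 fit, and without the second Cap-L+2D or the third Cap-B+2D library (adjusted p from 0.0569 to 0.0690).

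Bglap, the osteocalcin gene, was near the floor outside culture. It had 4, 15 and 3 counts in Cap-L and 0, 3 and 3 in Cap-B. The ratio of the summed counts, scaled by library size, was 2.85, with an exact 95% counting interval of 1.12 to 8.60, and the libraries overlapped. Bell stage counts were 10, 7 and 9 in Bell-L and 5, 5 and 6 in Bell-B. All Bell-L libraries were above Bell-B in CPM, as were those of 23.6% of genes tested, and Bglap itself was too low to test. In culture it was at 35.3, 34.6 and 35.9 CPM in Cap-L+2D and 5.41, 6.27 and 4.94 in Cap-B+2D, a 6.42-fold difference (log2 fold change of 2.68 with a standard error of 0.073, adjusted p = 1.63e-20 by edgeR). The neighbouring copies had the same order in culture: Bglap2 was at 17.2 ± 0.815 and 3.63 ± 0.109 CPM (SD, n = 3 each; log2 fold change 2.25) and Bglap3 at 9.63 ± 0.493 and 1.43 ± 0.214 CPM (SD, n = 3 each; log2 fold change 2.75). Bglap3 was also called higher in Bell-L (log2 fold change of 2.52 with a standard error of 0.44, adjusted p = 8.84e-06 by edgeR).

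Most of the matrix genes were higher after culture than before it, on both sides. The cultured parts differ from the fresh ones in 2 days of age, in vitro conditions and loss of the counterpart, which cannot be told apart. From Cap-L to Cap-L+2D, 9 of 10 members were called higher (19.6% of 21425 genes) and none lower (15.9%), with a median log2 fold change of 2.55. From Cap-B to Cap-B+2D, 6 of the 9 members tested were called higher (17.9% of 21992 genes) and Sp7 was called lower (16.6%), with a median of 1.03. Cap-L+2D and Cap-B+2D are each compared with their own side, and the values are given side by side.

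The largest rises were those of Bglap, Spp1 and Dmp1. Bglap rose by 7.19 on the log2 scale in the lingual part (SE 0.15, adjusted p by edgeR = 7.59e-23), from 4, 15 and 3 counts in the Cap-L libraries. The value was 8.10 without the second of them, and 6.87 without the third. In the buccal part, where Cap-B had at most 3 counts a library, the ratio of summed counts, scaled by library size, was 65.9 with an exact 95% counting interval of 30.1 to 180.3. Spp1 rose 69.2-fold in the lingual part (log2 fold change of 6.11 with a standard error of 0.069, adjusted p = 4.60e-28 by edgeR) and 140.3-fold in the buccal part (log2 fold change of 7.13 with a standard error of 0.090, adjusted p = 7.23e-35 by edgeR). Dmp1 rose 32.3-fold and 18.9-fold, with log2 fold changes of 5.01 (SE 0.078, adjusted p = 2.05e-25 by edgeR) and 4.24 (SE 0.11, adjusted p = 5.73e-26 by edgeR). Every cultured library lay above every fresh library of its side for these 3 genes, as did 32.7% of all genes tested on the lingual and 34.8% on the buccal side.

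Ibsp rose 9.86-fold in the lingual part (log2 fold change of 3.30 with a standard error of 0.046, adjusted p = 2.14e-26 by edgeR) and 3.32-fold in the buccal part (log2 fold change of 1.73 with a standard error of 0.040, adjusted p = 1.88e-27 by edgeR). Mepe rose in the lingual part, from 5 counts in all to 47, a ratio of 9.74 with an exact 95% counting interval of 3.89 to 31.4. In Cap-B+2D it had 24 counts against 0 in Cap-B, so its mean level was at least 1.98-fold higher, taking 3 counts per library for the zeros. Phex rose on both sides, with log2 fold changes of 1.34 (SE 0.097, adjusted p = 6.82e-12 by edgeR) and 1.03 (SE 0.074, adjusted p = 6.34e-14 by edgeR). Alpl rose 2.02-fold on the lingual and 1.56-fold on the buccal side, with log2 fold changes of 1.02 (SE 0.043, adjusted p = 1.62e-16 by edgeR) and 0.64 (SE 0.039, adjusted p = 8.86e-16 by edgeR).

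Ifitm5 and Phospho1 were called only in the lingual part, with log2 fold changes of 1.90 (SE 0.098, adjusted p = 8.25e-15 by edgeR) and 1.14 (SE 0.14, adjusted p = 1.65e-07 by edgeR). On the buccal side their values were 0.22 (SE 0.15, adjusted p = 0.207 by edgeR) and 0.31 (SE 0.27, adjusted p = 0.327 by edgeR). The interaction of side with culture, which tests this difference, was called for both, although that of Phospho1 (edgeR adjusted p = 0.0213) was lost with DESeq2, with no filter on low counts, with all 24 libraries in 1 fit and without the third Cap-B library. Sp7, in contrast, did not rise: its log2 fold change was -0.28 (SE 0.042, adjusted p = 2.14e-06 by edgeR) in the lingual part, under the limit for a call, and -0.67 (SE 0.041, adjusted p = 1.09e-15 by edgeR) in the buccal part. All cultured libraries were below the fresh ones of their side for Sp7.

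**Figure D3:**
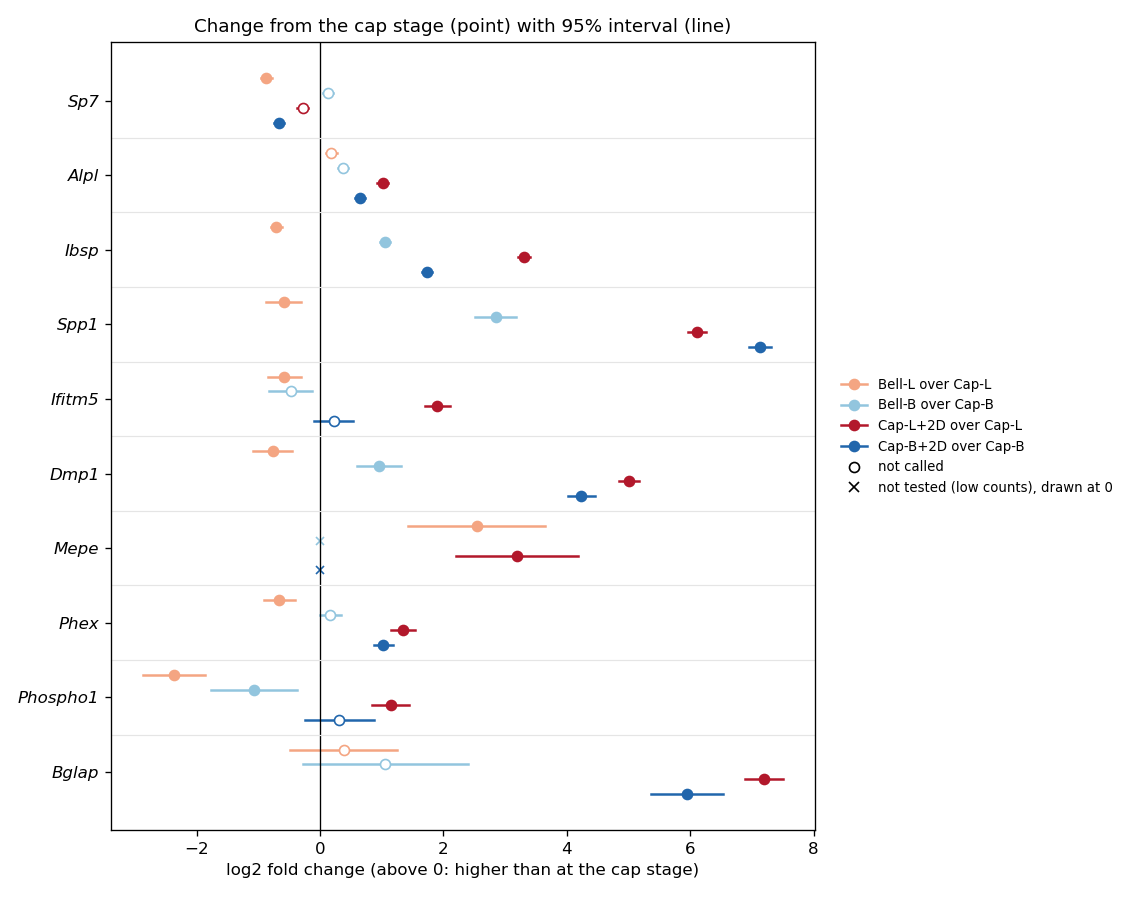
Log2 fold change of each gene from the cap stage to the bell stage and from the cap stage to culture, on the lingual and the buccal side, with 95% intervals from the edgeR fit. Filled points were called, open points were not, and crosses drawn at 0 mark genes that were not tested. Spp1, Bglap and Dmp1 lie farthest to the right after culture, between 4.24 and 7.19, and Sp7 is the single gene whose cultured values both lie below 0.

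Development in the embryo, over the same number of days, moved these genes differently on the 2 sides. From Cap-L to Bell-L, 7 of 10 members were called lower (5.78% of 21425 genes) and Mepe was called higher (14.2%). Phospho1 had the largest decrease (log2 fold change of -2.37 with a standard error of 0.24, adjusted p = 9.96e-09 by edgeR), and Sp7 fell from 141 ± 2.88 to 76.7 ± 3.10 CPM (SD, n = 3 each; log2 fold change of -0.87 with a standard error of 0.043, adjusted p = 9.86e-15 by edgeR). Ibsp, Dmp1, Phex, Spp1 and Ifitm5 decreased by between 0.58 and 0.77 on the log2 scale. Without the second Bell-L library the decrease of Spp1 was 0.497, under the fold limit, as was that of Ifitm5 without the second Cap-L or the third Bell-L library. Mepe had 5 counts in Cap-L and 28 in Bell-L, a ratio of 6.16 with an exact 95% counting interval of 2.35 to 20.4.

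From Cap-B to Bell-B, 3 of the 9 members tested were called higher (12.0% of 21992 genes) and Phospho1 was called lower (6.73%). Spp1 rose 7.18-fold (log2 fold change of 2.84 with a standard error of 0.16, adjusted p = 3.48e-16 by edgeR), Ibsp 2.08-fold (log2 fold change of 1.05 with a standard error of 0.042, adjusted p = 1.91e-20 by edgeR) and Dmp1 1.93-fold (log2 fold change of 0.95 with a standard error of 0.18, adjusted p = 3.08e-05 by edgeR). Under the fold limit for a call, Alpl was at 0.37 on the log2 scale (SE 0.040, adjusted p = 1.71e-09 by edgeR) and Sp7 at 0.12 (SE 0.039, adjusted p = 0.0111 by edgeR). Phex was at 0.16 (SE 0.083, adjusted p = 0.109 by edgeR), and Ifitm5 was at -0.48 (SE 0.17, adjusted p = 0.0215 by edgeR). The decrease of Phospho1, -1.07 (SE 0.34, adjusted p = 0.00976 by edgeR), was not called without the third Bell-B library (adjusted p = 0.0806). Spp1, Ibsp and Dmp1 were thus higher at the bell stage in the buccal part and lower at the bell stage in the lingual part.

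Set against the bell stage, the cultured lingual part was higher for 9 of 10 members (14.4% of 21425 genes) and lower for none (16.8%), from Sp7 (log2 fold change of 0.59 with a standard error of 0.044, adjusted p = 1.31e-11 by edgeR) to Bglap (log2 fold change of 6.81 with a standard error of 0.15, adjusted p = 2.42e-22 by edgeR). With library sizes alone as the scale, the Sp7 value was 0.48, under the fold limit. Mepe was not called (log2 fold change of 0.65 with a standard error of 0.33, adjusted p = 0.0906 by edgeR). The cultured buccal part was higher than Bell-B for 7 of the 9 members tested (15.5% of 21992 genes) and lower for Sp7 (16.3%; log2 fold change of -0.79 with a standard error of 0.040, adjusted p = 6.26e-18 by edgeR).

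Levels can be compared between genes only per length. In normalized CPM per kilobase of countable exon, Alpl was the most abundant member in Cap-L, at 65.6 ± 2.05 (SD, n = 3), ahead of Ibsp at 57.8 ± 1.14 and Sp7 at 41.6 ± 0.848. In Cap-L+2D, Ibsp led at 567 ± 12.9, followed by Spp1 at 135 ± 1.99, Alpl at 132 ± 3.89 and Bglap at 57.1 ± 0.992 CPM per kilobase (SD, n = 3 each). In Cap-B+2D, Spp1 led at 77.4 ± 2.02, followed by Ibsp at 57.8 ± 1.48 and Alpl at 44.9 ± 2.86 CPM per kilobase.

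**Figure D4:**
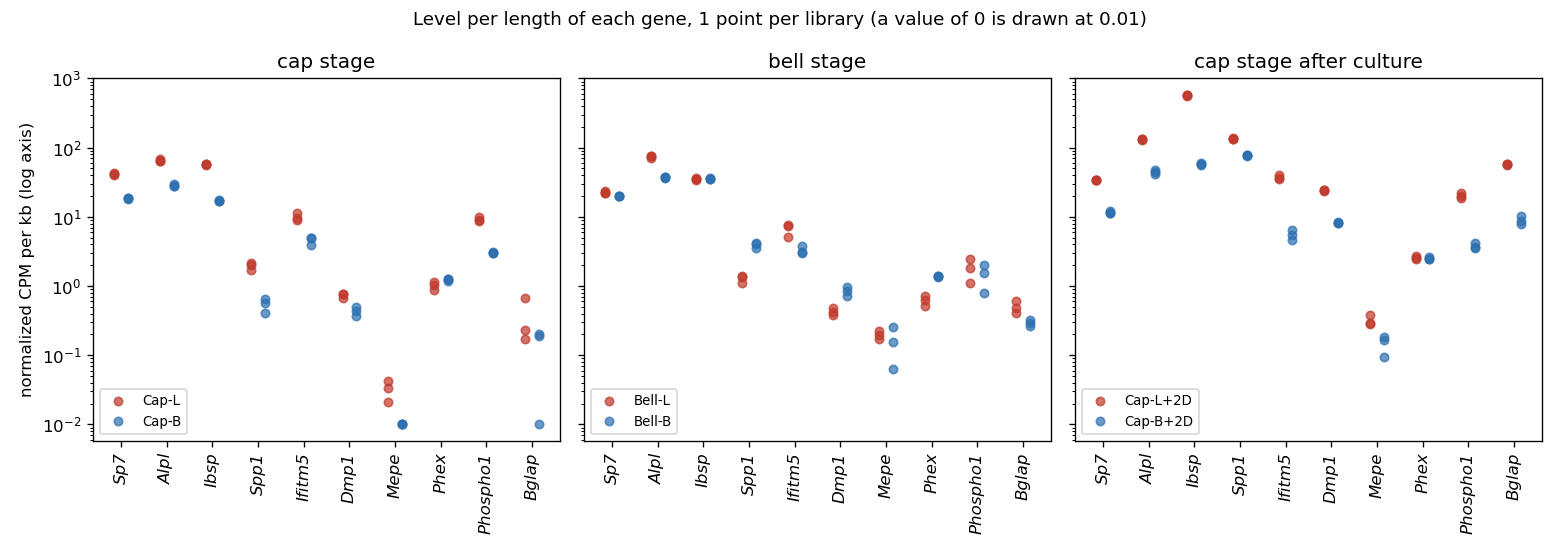
Level of each gene in normalized CPM per kilobase, on a log axis, in the lingual and buccal parts at the cap stage, at the bell stage and after culture. Each point is 1 library, and a value of 0 is drawn at 0.01. Alpl has the highest mean in the fresh parts, close to Ibsp in Bell-B (36.9 and 35.9 CPM per kilobase), Ibsp is highest in Cap-L+2D at 567 CPM per kilobase, and Mepe has the lowest mean throughout.

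The undivided mesenchyme stood apart from its parts at the cap stage. For 6 of the 10 members, Sp7, Alpl, Ibsp, Ifitm5, Dmp1 and Phospho1, every Cap-W library was below every Cap-L and every Cap-B library, as it was for 17.6% of 20653 genes. Ibsp was at 1.00, 8.72 and 3.31 CPM in Cap-W, against a lowest value of 35.0 CPM in any part. For Phex the order was opposite, and every Cap-W library, at 12.8, 11.0 and 11.6 CPM, was above every Cap-L and Cap-B library. The undivided tissue thus did not lie between its parts for these genes, and the Cap-W libraries varied more among themselves, with Sp7 at 18.3, 49.5 and 34.5 CPM. Summed muscle markers were 13.9 to 18.6 CPM in Cap-W against 233 to 249 in Cap-B, and summed endothelial markers were 161 to 177 against 372 to 394 in Cap-L and 338 to 350.3 in Cap-B. Their part in the result was not tested.

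From Cap-W to Bell-W, 5 of the 7 members tested were called higher (10.3% of 20940 genes) and none lower by edgeR (4.21%). Phex, the single member with a lower mean in Bell-W among those tested, was at -0.59 (SE 0.20, adjusted p = 0.0862 by edgeR) and was called with DESeq2 and with all 24 libraries in 1 fit (adjusted p = 0.0401 and 0.000994). Ibsp rose to 63.8, 116 and 64.0 CPM (log2 fold change of 4.14 with a standard error of 0.65, adjusted p = 0.00503 by edgeR), a value that was 3.70 without the first Cap-W library, the one with the high Rn18s-rs5 share, and 5.18 without the second. Spp1 rose from 0.556, 0.856 and 0.447 to 5.92, 7.36 and 7.23 CPM (log2 fold change of 3.41 with a standard error of 0.31, adjusted p = 0.000724 by edgeR), and Dmp1 from 0.222, 0.263 and 0.0895 to 2.38, 2.51 and 1.61 (log2 fold change of 3.43 with a standard error of 0.46, adjusted p = 0.00272 by edgeR). Alpl rose 2.52-fold (log2 fold change of 1.33 with a standard error of 0.21, adjusted p = 0.00535 by edgeR). Ifitm5 was called (log2 fold change of 1.44 with a standard error of 0.39, adjusted p = 0.0425 by edgeR), but not when any library except the third Bell-W library was left out, with library sizes alone as the scale, with no filter on low counts or with the replicate number as a block (adjusted p from 0.0529 to 0.152). Sp7 was at 67.9, 75.1 and 67.2 CPM in Bell-W and missed the call (log2 fold change of 1.01 with a standard error of 0.32, adjusted p = 0.0709 by edgeR). It was called with DESeq2, with no filter on low counts, with the replicate block, with all 24 libraries in 1 fit, and without the first or the second Cap-W library (adjusted p from 6.40e-05 to 0.0321). Ibsp, Spp1 and Dmp1 were thus called higher in Bell-W than in Cap-W and lower in Bell-L than in Cap-L. Some markers of other cell types rose from Cap-W to Bell-W and others fell, and their part in the result was not tested. All 6 macrophage markers were called higher in Bell-W (38.6 to 44.0 CPM in Cap-W and 185 to 197 in Bell-W). So were 7 of the 9 osteoclast markers tested (61.6 to 98.7 and 298 to 429 CPM) and all 5 endothelial markers (161 to 177 and 302 to 398 CPM). Ocstamp and Dcstamp were at or under 3 counts in every Cap-W library. Of 6 cartilage markers tested, 3 were called lower in Bell-W and 1 higher, the latter a call lost in several other fits. Their sums were 234 to 259 CPM in Cap-W and 44.1 to 76.5 in Bell-W. Muscle and Schwann cell markers were called in neither direction, though some were called lower in Bell-W in other fits.

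The other osteoblast genes were read from lists of the pathway. Of 7 osteoblast transcription factors, all tested, 6 were called higher in Cap-L, 1 in Bell-L and 6 in Cap-L+2D, beside 7.10%, 6.88% and 12.5% of all genes tested, and none was called on the buccal side. The median log2 fold change of the list at the bell stage was 0.10. Runx2, the master regulator of the osteoblast, was at 444 ± 20.6 CPM in Cap-L and 241 ± 3.20 in Cap-B (SD, n = 3 each; log2 fold change of 0.85 with a standard error of 0.047, adjusted p = 3.88e-11 by edgeR). It was at 290.5 ± 7.35 in Bell-L and 262 ± 4.57 in Bell-B, which was under the limit for a call (log2 fold change of 0.15 with a standard error of 0.031, adjusted p = 0.000134 by edgeR), and at 290.0 ± 4.54 and 123 ± 1.59 in Cap-L+2D and Cap-B+2D (log2 fold change of 1.24 with a standard error of 0.037, adjusted p = 8.46e-20 by edgeR). Like Sp7, Runx2 decreased in culture on both sides, with log2 fold changes of -0.61 (SE 0.043, adjusted p = 5.75e-12 by edgeR) and -0.99 (SE 0.032, adjusted p = 2.48e-23 by edgeR).

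Among 9 genes of phosphate and mineral handling, 8 were tested. Of these, 3 were higher (7.10% of all genes tested) and 1 lower (10.4%) in Cap-L. In Bell-L 2 were higher (6.88%) and 2 lower (6.00%), and in Cap-L+2D 3 were higher (12.5%) and 1 lower (12.5%). The median log2 fold change was 0.10, -0.13 and 0.10, and the lower count at the bell stage was 1 without the first or second Bell-L or the first Bell-B library. Enpp1, which makes the mineral inhibitor pyrophosphate, was higher in Cap-L (log2 fold change of 2.34 with a standard error of 0.060, adjusted p = 7.51e-16 by edgeR), in Bell-L (1.11) and in Cap-L+2D (2.12). Mgp, an inhibitor of calcification, was lower in the lingual part, with log2 fold changes of -2.07, -1.19 and -1.43. Smpd3, a sphingomyelinase needed for bone mineral, was higher in Cap-L, at 1.24 (SE 0.053, adjusted p = 1.10e-12 by edgeR), and in Cap-L+2D, at 1.77 (SE 0.039, adjusted p = 2.25e-22 by edgeR), while every Bell-L library was below every Bell-B library, under the limit for a call (log2 fold change of -0.43 with a standard error of 0.036, adjusted p = 2.31e-13 by edgeR). Nt5e, which makes adenosine at the cell surface, was called higher in Bell-L (log2 fold change of 1.18 with a standard error of 0.044, adjusted p = 6.10e-25 by edgeR).

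The 9 further bone matrix proteins were split between the sides at the cap stage. Of 7 tested, 2 were higher in Cap-L (7.10% of all genes tested) and 4 in Cap-B (10.4%). Among the 4 was Col1a1, the main bone collagen, at 2294 ± 131 CPM in Cap-L and 3478 ± 99.0 in Cap-B (SD, n = 3 each). Its log2 fold change was -0.63 (SE 0.048, adjusted p = 4.95e-09 by edgeR). Among 8 tested at the bell stage, 4 were higher in Bell-L (6.88% of all genes tested), led by Bglap3, Ogn (1.60) and Postn (1.39), and none in Bell-B (6.00%). In culture 5 of 9 were higher in Cap-L+2D (12.5% of all genes tested) and none in Cap-B+2D (12.5%). The side by stage interaction was called above 0 for all 8 tested, as it was for 18.0% of 21931 genes. It was called below 0 for 7 of the 8 tested members of the main list. The call of Bglap3, which had few counts, was lost with library size only and with no filter (edgeR adjusted p = 0.0504 and 0.0767). It was also lost with DESeq2 (adjusted p = 0.0818) and in several fits that left out 1 library. With all 24 libraries in 1 fit, 5 of the 8 were called.

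Of 10 osteoblast receptors and signals, 5 were higher in Cap-L, 2 in Bell-L and 5 in Cap-L+2D, beside 7.10%, 6.88% and 12.5% of all genes tested. None was higher on the buccal side, where 10.4%, 6.00% and 12.5% of all genes were. Bmp2, a secreted inducer of bone, had log2 fold changes of 0.94 (SE 0.061, adjusted p = 4.96e-10 by edgeR), 1.43 (SE 0.070, adjusted p = 8.37e-21 by edgeR) and 2.22 (SE 0.047, adjusted p = 8.13e-23 by edgeR). Among the 3 genes that control osteoclasts, Tnfsf11 (RANKL) was at 8.81 ± 0.280 and 3.83 ± 0.593 CPM at the cap stage (log2 fold change of 1.16 with a standard error of 0.11, adjusted p = 9.50e-08 by edgeR) and at 29.4 ± 1.35 and 7.12 ± 0.805 CPM in culture (SD, n = 3 each; log2 fold change of 2.05 with a standard error of 0.075, adjusted p = 7.46e-18 by edgeR). At the bell stage Tnfsf11 was called on neither side (log2 fold change of -0.07), and its interaction with stage was -1.23. Its decoy receptor Tnfrsf11b was higher on the lingual side at cap, bell and in culture, by 1.59, 1.89 and 1.93 on the log2 scale. Of 5 osteocyte and odontoblast genes, only 2, 2 and 3 had enough counts to be tested by side at cap, bell and in culture. Nes was higher on the buccal side in all 3 settings (-0.64, -1.49 and -2.38), and Fgf23 and Pdpn in culture. Of all genes tested, 10.4%, 6.00% and 12.5% were called on the buccal side. Fgf23 was at or under 3 counts in every Cap-B library.

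The sides also differed in markers of other cell types, and their part in the results above was not tested. Of all genes tested, 7.10%, 6.88% and 12.5% were called on the lingual side at cap, bell and in culture. On the buccal side 10.4%, 6.00% and 12.5% were. All 7 muscle markers were called higher on the buccal side in each setting, and summed to 19.5 to 20.2 CPM in Cap-L and 233 to 249 in Cap-B, 113 to 122 in Bell-L and 969 to 992 in Bell-B, and 306 to 325 in Cap-L+2D and 3913 to 4123 in Cap-B+2D. Myf5 had at most 3 counts in each Cap-L library. Cartilage markers were higher in Cap-L for 5 of 6 tested and in Cap-B for 1, a call lost in 7 of the other fits (271 to 287 against 137 to 141 CPM), with Matn1 and Col10a1 at or under 3 counts in every library of both parts. The cultured lingual part had 5 of 6 higher and 1 lower, at 259 to 283 against 166 to 182 CPM. In the bell stage parts, none was higher in Bell-L and 2 were higher in Bell-B, or 1 with all 24 libraries in 1 fit (65.1 to 68.0 against 71.4 to 73.0 CPM).

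Macrophage markers, given here because macrophages also make Spp1, were called on neither side at the cap stage (74.9 to 77.5 CPM in Cap-L and 79.3 to 82.6 in Cap-B). At the bell stage 5 of 6 were higher in Bell-L (292 to 295 against 153 to 154 CPM), beside 6.88% of all genes tested. In culture 5 of 6 were higher in Cap-L+2D (243 to 256 against 160.0 to 169 CPM), beside 12.5% of all genes tested. All 6 rose from Cap-L to Cap-L+2D (19.6% of all genes tested) and 5 of 6 from Cap-B to Cap-B+2D (17.9%). Osteoclast markers were higher in Cap-L for 2 of 8 tested, in Bell-L for 1 of 10 and in Cap-L+2D for 1 of 9, where 7.10%, 6.88% and 12.5% of all genes were. None was called on the buccal side, although 1 was in culture in 7 of the other fits.

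Epithelial markers, which should be absent from isolated mesenchyme, were present in every group. They summed to 428 to 473 CPM in Cap-L and 307 to 321 in Cap-B, 715 to 744 in Bell-L and 523 to 539 in Bell-B, and 304 to 334 in Cap-L+2D and 86.0 to 86.7 in Cap-B+2D. They were called higher on the lingual side for 5 of 6, 2 of 7 and 5 of 7 tested in these settings, beside 7.10%, 6.88% and 12.5% of all genes. In Cap-B+2D 1 of 7 was called higher, beside 12.5% of all genes. With all 24 libraries in 1 fit the count was 3 in Cap-L and 1 in Bell-L. In Cap-B+2D Shh was at or under 3 counts. In Bell-W they ranged from 446 to 1841 CPM. Endothelial markers were called on neither side at cap and bell. In Cap-L+2D 4 of 5 were higher (321 to 329 against 136 to 138 CPM), beside 12.5% of all genes tested. Schwann cell markers were higher on the buccal side for 4 of 4, 3 of 4 and 2 of 2 tested, beside 10.4%, 6.00% and 12.5% of all genes.

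**Figure D5:**
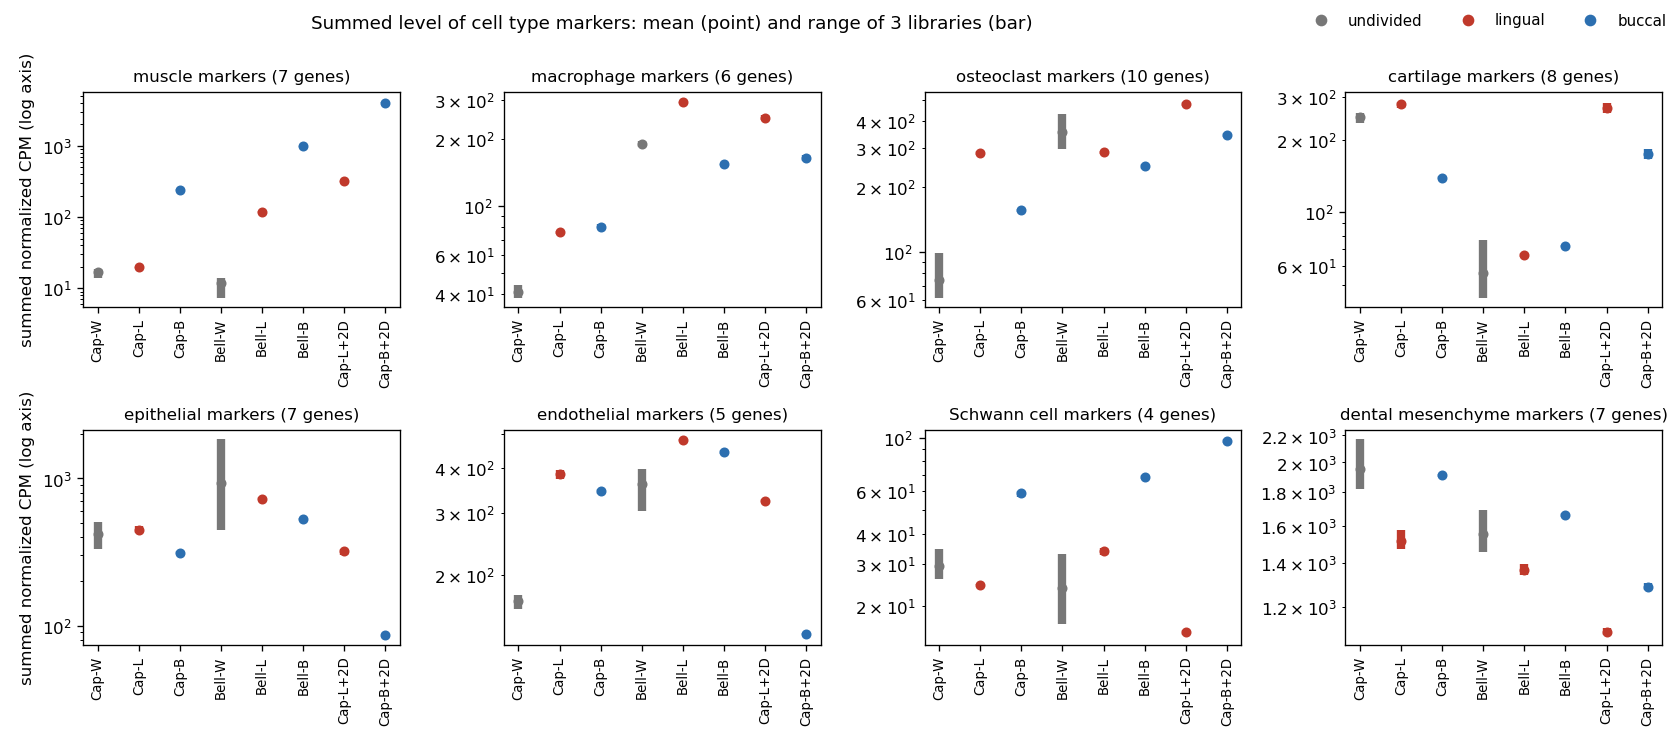
Summed normalized CPM of marker lists of 8 cell types in each group, on a log axis. Points are means of 3 libraries, bars run from the lowest to the highest library, and colors mark undivided, lingual and buccal mesenchyme. Muscle markers are higher in the buccal than in the lingual part at both stages and after culture, reaching 3913 to 4123 CPM in Cap-B+2D.

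Over the 8 group means of log2 CPM, the genes whose pattern was most like that of Sp7 among 19646 genes were Ntmt1 (Pearson's r = 0.971), Tpm3-rs7, Fhod1, Pde8a and Gm20949 (0.948). Those most like Ibsp were Niban2 (0.985), Sec61bl, Dusp2, Notch1 and S1pr1 (0.975). Among the members, Alpl (0.927) and Ifitm5 (0.909) were most like Ibsp, and Phex was least like both Sp7 (-0.34) and Ibsp (0.19). The 8 points share libraries, normalization and the change in culture, so these values only describe likeness.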

How the data were processed

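RNA was sequenced from 24 libraries, 3 in each of 8 groups. The authors deposited raw read counts per gene. Per the first line of the table, they were made with featureCounts 2.0.0 on read pairs over exons, with Ensembl release 107 and no strand option, and read pairs that map to several places or overlap several genes were not counted. The submitters' processing notes name FastQC 0.12.1, Trimmomatic 0.39, Bowtie 1.2.3, Subread 2.0.3, DESeq2 1.40.2 and GRCm39. Identifiers were given symbols from Ensembl release 116 (56017 of 56748 matched).

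Totals ran from 20581720 to 39266497 counts per library, with a median of 27677163, and intervals on counts cover counting error only. Each comparison was fitted to its own libraries across all genes that passed filterByExpr, with TMM normalization and the quasi-likelihood test of edgeR 4.0.16 in R 4.3.3, and p-values were adjusted by Benjamini and Hochberg over all genes tested. Side comparisons and Bell-W against Cap-W used 6 libraries, comparisons within a side used 9, and interactions used 12. On data simulated with the spread of these libraries, 200 genes above 2 CPM were changed by 2 on the log2 scale. By edgeR all 200 were recovered among 20349 genes in Cap-L against Cap-B, with 4 false calls. For the side by stage interaction all 200 were recovered among 21485 genes, with 10 false calls. Smaller changes and genes at lower levels were not simulated. Alternatives were RLE normalization, library size only, DESeq2 1.42.0, no filter, all libraries in 1 fit, a replicate block and leaving out each library. Promoter windows came from RefSeq.

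The members and lists were chosen with earlier results of these data known. All 10 members were named in every comparison, and of each other list up to 4 called genes with the largest change, besides Runx2, Bglap2, Bglap3 and Dspp. Some results that this rule names are not reported here. The genes most like Sp7 and Ibsp were the 5 with the highest correlation over the group means.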

Additional observations from a re-analysis of the deposited data

Results flagged for a closer look

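The lingual over buccal log2 fold change differed between the cap and the bell stage in 7 of the 8 members tested, by the edgeR test of the difference itself. It was lower at the bell stage by a difference of -3.42 for Spp1, -1.75 for Ibsp, -1.71 for Dmp1, -1.28 for Phospho1, -0.98 for Sp7, -0.81 for Phex and -0.18 for Alpl. With all 24 libraries in 1 fit the differences of Alpl and Phospho1 were no longer called (edgeR adjusted p = 0.514 and 0.0980). That of Phospho1 was also lost with DESeq2 and in 6 of the 12 fits that left out 1 library, and that of Alpl without the third Bell-L library. For Spp1 and Dmp1 the sign of the side difference itself turned.

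Between the fresh cap stage and culture it differed in 8 of the 10 members. It was larger in culture by 1.69 for Ifitm5, 1.58 for Ibsp, 0.84 for Phospho1, 0.78 for Dmp1, 0.40 for Sp7, 0.39 for Alpl and 0.33 for Phex, where the lingual deficit of the cap stage was no longer seen. For Spp1 it was smaller, by -1.01. With all 24 libraries in 1 fit the differences of Sp7, Alpl, Phospho1 and Phex were no longer called (edgeR adjusted p = 0.366, 0.171, 0.203 and 0.331), and 3 members were called above 0.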

How the results depend on the processing

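Of 86 calls on single members, 86 held with RLE normalization, 85 with the replicate block, 83 with library size only, 83 with no filter on low counts, 82 with DESeq2 and 79 with all libraries in 1 fit, and 716 of 741 held when 1 library was left out. Of the counts over the lists, 4703 stayed within 1.5 times the main count and 169 did not. With all libraries in 1 fit, 3 members had a side by culture interaction called above 0 in place of 7, and leaving out 1 library gave 5 to 7. Phex was called higher in Cap-W than in Bell-W, so that 1 member was, with DESeq2 and with all libraries in 1 fit, and leaving out 1 library gave 0 to 1. Leaving out 1 library gave 1 to 2 members higher in Bell-L than in Cap-L (Bglap being added without the second Cap-L library) and 0 to 2 higher in Cap-B than in Bell-B (Ifitm5 added without the first Cap-B or Bell-B library, Phospho1 lost without the third Bell-B library). Values near 0 changed sign: Phex by side in culture was -0.044 with library size only and -0.028 to 0.040 with 1 library left out, Phospho1 by side at the bell stage -0.019 to 0.61, the side by stage interaction of Ifitm5 -0.18 to 0.078, and Bglap3 in Bell-B over Cap-B -0.84 to 0.11. Runx2 in Cap-L+2D over Bell-L was 0.010 with RLE normalization, 0.010 with DESeq2, 0.019 with no filter and -0.028 to 0.011 with 1 library left out. The side by culture interaction of Bglap2, which had few counts at the cap stage, ranged from -0.35 to 4.03. The cause was not tested. Same-numbered libraries did not deviate together in every pair of any comparison (correlations from -0.13 to 0.14), so the numbers were not taken as pairs. With the replicate block, Bell-W over Cap-W was 1.46 for Ifitm5 (edgeR adjusted p = 0.0910, call lost) and 1.12 for Sp7 (0.0262, call gained), and no other member's call changed. Library size only shifted the median of all genes by -0.15 in Cap-L+2D over Cap-L and by -0.11 in Cap-L+2D over Bell-L. Mepe and fresh-tissue Bglap are limited by depth.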
